A study of Mus musculus with 12 samples.

Results

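The 10 immune checkpoint and suppression genes described here are Cd274, Pdcd1lg2, Pdcd1, Ctla4, Lag3, Havcr2, Lgals9, Ido1, Cd80 and Cd86. They were chosen by name as a list, and make up 10 of the 32288 rows in each count file. All 10 had a total of at least 10 counts and were tested. No member was called in any comparison of light with dark or of engineered with control tumors. The share of all genes tested that was called lay between 0.0106% and 1.54% in these comparisons. The 2 members that passed the thresholds under some alternative processing were Cd274, with a log2 fold change of 1.12 between light and dark in engineered tumors, and Pdcd1, with 1.20 between engineered and control tumors in the dark.

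The libraries came from single subcutaneous tumors of DBA/2 mice, of both sexes in the study, implanted with cells of P815, a murine mast cell tumor line. P815-IFNG cells, the engineered line, carry the light-sensing transactivator GAVPO under the EF-1α promoter and a UAS-driven Ifng-Cxcl10 cassette with a Gaussia luciferase, whereas P815-M cells, the control line, carry neither. Both lines carry mRuby and firefly luciferase, and each is 1 single-cell clone, so a difference between the lines cannot be told apart from a difference between 2 clones. From 7 days after implantation, mice were kept for 6 days under blue light for 12 h per day (light group) or without blue light (dark group), with 3 mice in each of the 4 groups. Each library is 1 tumor of 1 mouse, so the tests measure the spread between mice.

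The third replicates of P815-IFNG light and P815-IFNG dark held 41473500 and 42338096 counts, and the other 10 libraries held between 2211234 and 2946792. These 2 deep libraries are shown apart for every member and are left out of the means given for other genes. The P815-M groups have none. The kinds of library also differed in mt-Nd6, which lies opposite the other mitochondrial protein-coding genes: its share of their counts was between 3.56% and 3.85% in the deep libraries and between 29.0% and 47.9% in the others. Cpa3, a mast cell protease gene, had means of 733 and 748 CPM in the other P815-IFNG light and dark libraries against 7570 and 5469 CPM in the deep ones. The libraries were made with a kit that marks strand, and the methods name the default parameters of HTSeq for all files. Which strand was counted in each kind of library was not tested. Whether values in the 10 libraries, low ones above all, are reads of the gene's own transcripts was therefore left undecided. Levels are CPM, counts per 1000000 counts of the library, on library sizes scaled by TMM, and a count of 3, taken as the floor, is between 0.931 and 1.56 CPM in the 10 libraries and 0.0670 or 0.0694 CPM in the deep ones. These are whole tumors, so fewer cells of a type and less RNA per cell cannot be told apart.

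Immune checkpoints are receptors on T cells and other leukocytes that dampen activation when they bind ligands on tumor or antigen-presenting cells. PD-L1 (Cd274) and PD-L2 (Pdcd1lg2) bind PD-1 (Pdcd1), galectin-9 (Lgals9) binds TIM-3 (Havcr2), and CD80 and CD86 bind both the activating receptor CD28 and the inhibitory receptor CTLA-4. Interferon gamma is known to induce Cd274 and Ido1, the latter encoding an enzyme that breaks down tryptophan and thereby restrains T cells.

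The members are protein-coding genes, with positions given on GRCm38 (mm10) by GENCODE M21. Cd274 (chromosome 19, 29367455 to 29388095) and Pdcd1lg2 (chromosome 19, 29410919 to 29471161) are neighbours on the plus strand. Pdcd1 (94038305 to 94052553, minus) and Ctla4 (60887000 to 60915832, plus) lie on chromosome 1, Havcr2 (46454935 to 46481255, plus) and Lgals9 (78962974 to 78984946, minus) on chromosome 11, and Cd80 (38455561 to 38496335, plus) and Cd86 (36603869 to 36666081, minus) on chromosome 16. Lag3 lies on chromosome 6 (124904361 to 124911705, minus) and Ido1 on chromosome 8 (24584136 to 24597009, minus). The exons of 1 member, Cd274, overlap those of a gene on the other strand, AC119228.1, over 511 bases. The antisense gene A930007I19Rik crosses the body of Pdcd1lg2 without exon overlap and had means of 53.4 and 54.0 CPM in the other P815-IFNG light and dark libraries against 2.96 and 2.28 CPM in the deep ones. The part of strand in the members' values was not tested.

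Promoter windows of RefSeq (GRCm38.p6) were matched for 7 of the 10 members, all but Lag3, Ido1 and Cd86. A pair of elements known from interferon-responsive promoters was searched on both strands over 300 bases around the RefSeq start. The windows of Ctla4 (60908775 to 60909074) and Cd80 (38458683 to 38458982) lie inside the GENCODE positions given above, away from the starts given there. The gamma-activated site, TTCNNNGAA, was in 8.30% of 32851 windows and in 0 of the 7 members' windows. The core of the interferon-stimulated response element, GAAA followed by any 2 bases and GAAA, was in 3.44% of windows and in 1 member's window, that of Lgals9, which held 2 matches. The sequences before the start are shown for Cd274, the PD-1 ligand with the larger light difference, and for Lgals9. The upstream match of Lgals9, which reads on the opposite strand, is in capitals. The Cd274 stretch is chr19:29367188-29367437 (plus strand, up to the RefSeq start), and the Lgals9 stretch is chr11:78984947-78985174 (minus strand, up to the GENCODE start).
Cd274: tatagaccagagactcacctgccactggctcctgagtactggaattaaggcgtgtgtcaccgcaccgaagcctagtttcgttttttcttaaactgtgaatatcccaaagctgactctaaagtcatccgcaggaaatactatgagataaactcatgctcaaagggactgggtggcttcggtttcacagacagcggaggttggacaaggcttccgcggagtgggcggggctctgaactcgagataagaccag
Lgals9: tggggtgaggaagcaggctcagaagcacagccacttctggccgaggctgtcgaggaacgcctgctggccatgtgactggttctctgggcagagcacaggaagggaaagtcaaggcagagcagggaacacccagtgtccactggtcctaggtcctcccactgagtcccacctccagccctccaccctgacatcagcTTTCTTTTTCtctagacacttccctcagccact
In Cd274 no letter is in capitals because neither motif was in its window. A match is a description of the letters and not a binding site.

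Levels between members were compared per kilobase of merged exons. Pdcd1 was the highest, with 233 CPM per kb in the deep light library, 303 in the deep dark library and a mean of 72.4 over the other 10. Lgals9 followed with 112 and 117 CPM per kb in the deep libraries and 50.8 in the others, and Cd274 with between 5.79 and 12.9 in the deep libraries and 19.8 in the others. Pdcd1lg2 and Lag3 came next, at means of 4.22 and 6.52 CPM per kb in the 10 libraries, in opposite order to the deep libraries (6.30 and 2.28). Cd80, Cd86 and Havcr2 had means between 1.04 and 1.78 CPM per kb in the 10 libraries. Ctla4 was at or under 3 counts in 8 of the 12 libraries and Ido1 in 10, so no fold change between groups is given for these genes.

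**Figure D1:**
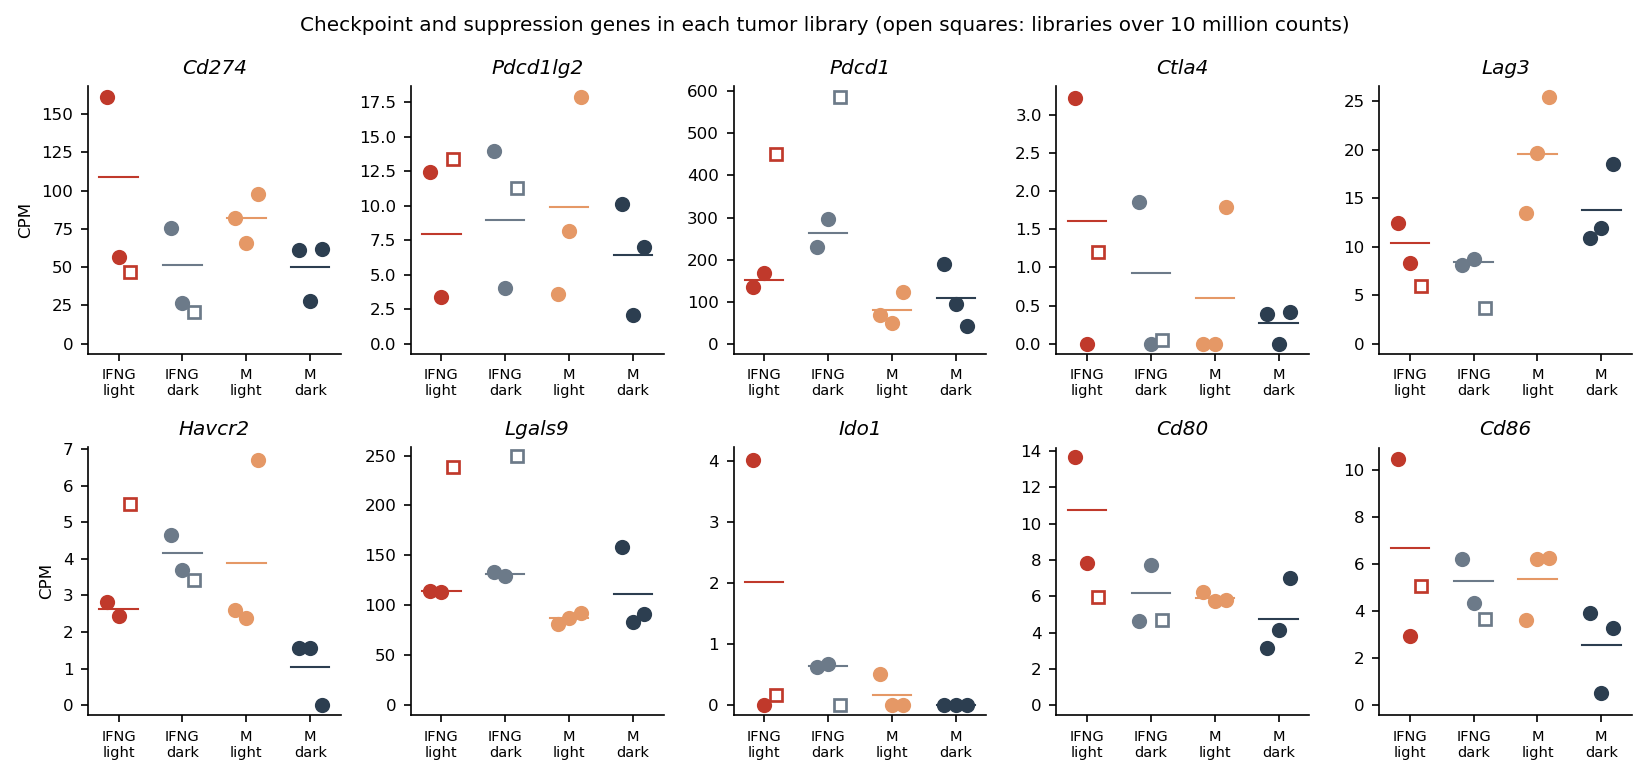
Level of each member in CPM (y axis, linear, a separate scale per panel) in every library of the 4 groups (x axis). Filled circles are libraries under 10000000 counts, open squares are the deep libraries, and lines are means of the circles; the single highest Cd274 value, 161 CPM, is the first P815-IFNG light replicate, and Pdcd1 and Lgals9 are highest in the open squares.

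Among the ligands, Cd274 encodes PD-L1, which engages PD-1 on T cells. In P815-IFNG tumors it had 161 and 56.6 CPM in the light group and 75.4 and 26.8 CPM in the dark group, and the deep libraries had 46.9 in light and 21.0 in dark. The light values were higher on average but the groups overlapped, because 1 dark library exceeded 1 light library. The log2 fold change was 1.12 (SE 0.35, adjusted p = 0.307 by Benjamini-Hochberg, edgeR's quasi-likelihood test, unadjusted p = 0.00415). The deep pair alone gave a ratio of light to dark of 2.23 (exact 95% interval 2.07 to 2.41), where these intervals cover counting error only. Left out, the first light replicate lowered the value to 0.63, and the first dark replicate raised it to 1.60. The main fit called 2 genes in this comparison, against 211 without the filter on low counts and 150 after ComBat-seq. Without the filter the log2 fold change of Cd274 was 1.11 (edgeR's adjusted p = 5.71e-06). After ComBat-seq it was 1.16 (edgeR's adjusted p = 0.0153), and these were 2 of the 3 alternatives that called Cd274. Over all 19 alternatives the adjusted p ranged from 5.71e-06 to 1.

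In P815-M tumors, Cd274 had 82.0, 65.6 and 97.9 CPM in the light group and 61.3, 27.6 and 61.7 CPM in the dark group. Every light library lay above every dark one, with a log2 fold change of 0.69 (SE 0.36, edgeR's adjusted p = 0.447). The light effect was 0.42 larger on the log2 scale in P815-IFNG tumors (SE 0.50, edgeR's adjusted p = 0.937), so a difference between the lines in the light effect was not detected. Between the lines, the log2 fold change of Cd274 was 0.43 in light (SE 0.37, edgeR's adjusted p = 0.729) and 0.01 in dark (SE 0.38, edgeR's adjusted p = 1). In light it turned to -0.17 without the first P815-IFNG replicate, and in dark to -0.60 without the first P815-IFNG replicate.

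Pdcd1lg2 encodes PD-L2, the other PD-1 ligand. It had 12.5 and 3.42 CPM in P815-IFNG light, 14.0 and 4.02 in P815-IFNG dark, and 13.4 and 11.3 in the deep light and dark libraries. In P815-M tumors the values were 3.63, 8.14 and 17.9 CPM in light and 10.1, 2.08 and 7.0 in dark. The groups overlapped in all 4 comparisons. Its log2 fold change between light and dark was 0.01 in P815-IFNG tumors (SE 0.53) and 0.60 in P815-M tumors (SE 0.60), and its sign changed with 1 library left out in both.

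Lgals9 encodes galectin-9, a secreted lectin. In P815-IFNG tumors it had 115 and 114 CPM in light, 134 and 130 CPM in dark, and 238 and 250 CPM in the deep light and dark libraries. All these light values were below the dark values of the same kind of library, by a log2 fold change of -0.16 (SE 0.20, edgeR's adjusted p = 0.890). In P815-M tumors it had 81.0, 87.1 and 92.6 CPM in light and 159, 83.3 and 91.4 CPM in dark, and the groups overlapped. In light, both P815-IFNG values lay above the 3 P815-M values, with a log2 fold change of 0.42 (SE 0.22, edgeR's adjusted p = 0.494). In the dark the lines overlapped, with a log2 fold change of 0.22 (SE 0.21).

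Among the receptors, Pdcd1 encodes PD-1, known from activated and exhausted T cells. In P815-IFNG tumors it had 134 and 168 CPM in light and 231 and 296 CPM in dark, and the deep libraries had 450 in light and 586 in dark. The level was lower in light in each kind of library, with a ratio of 0.768 in the deep pair (exact 95% interval 0.754 to 0.783). Over all libraries the log2 fold change was -0.66 (SE 0.35, edgeR's adjusted p = 0.634). In P815-M tumors, Pdcd1 had 68.5, 49.3 and 123 CPM in light and 190, 95.3 and 41.6 CPM in dark, and the groups overlapped. Their log2 fold change was -0.44 (SE 0.37), which turned to 0.25 without the first dark replicate.

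The P815-M groups have no deep library to set beside the deep P815-IFNG ones. Among libraries under 10000000 counts, Pdcd1 was higher in each P815-IFNG than in each P815-M library, both in light and in dark. It differed by a log2 fold change of 0.98 in light (SE 0.39, edgeR's adjusted p = 0.335, unadjusted p = 0.0207) and 1.20 in dark (SE 0.38, edgeR's adjusted p = 0.0988, unadjusted p = 0.00471). In dark the value was 1.89 without the first P815-M replicate, where edgeR's adjusted p of 0.00810 passed the threshold, and 0.81 without the third P815-M replicate. It also passed without the filter on low counts (1.20, edgeR's adjusted p = 5.11e-07) and after ComBat-seq (1.15, edgeR's adjusted p = 0.0145), while the adjusted p over all 19 alternatives ranged from 5.11e-07 to 0.604. In dark, the main fit called 290 genes, against 640 without the filter, 544 after ComBat-seq and 318 without the first P815-M replicate. In light, no alternative called Pdcd1, and its value ranged from 0.73 to 1.64.

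**Figure D2:**
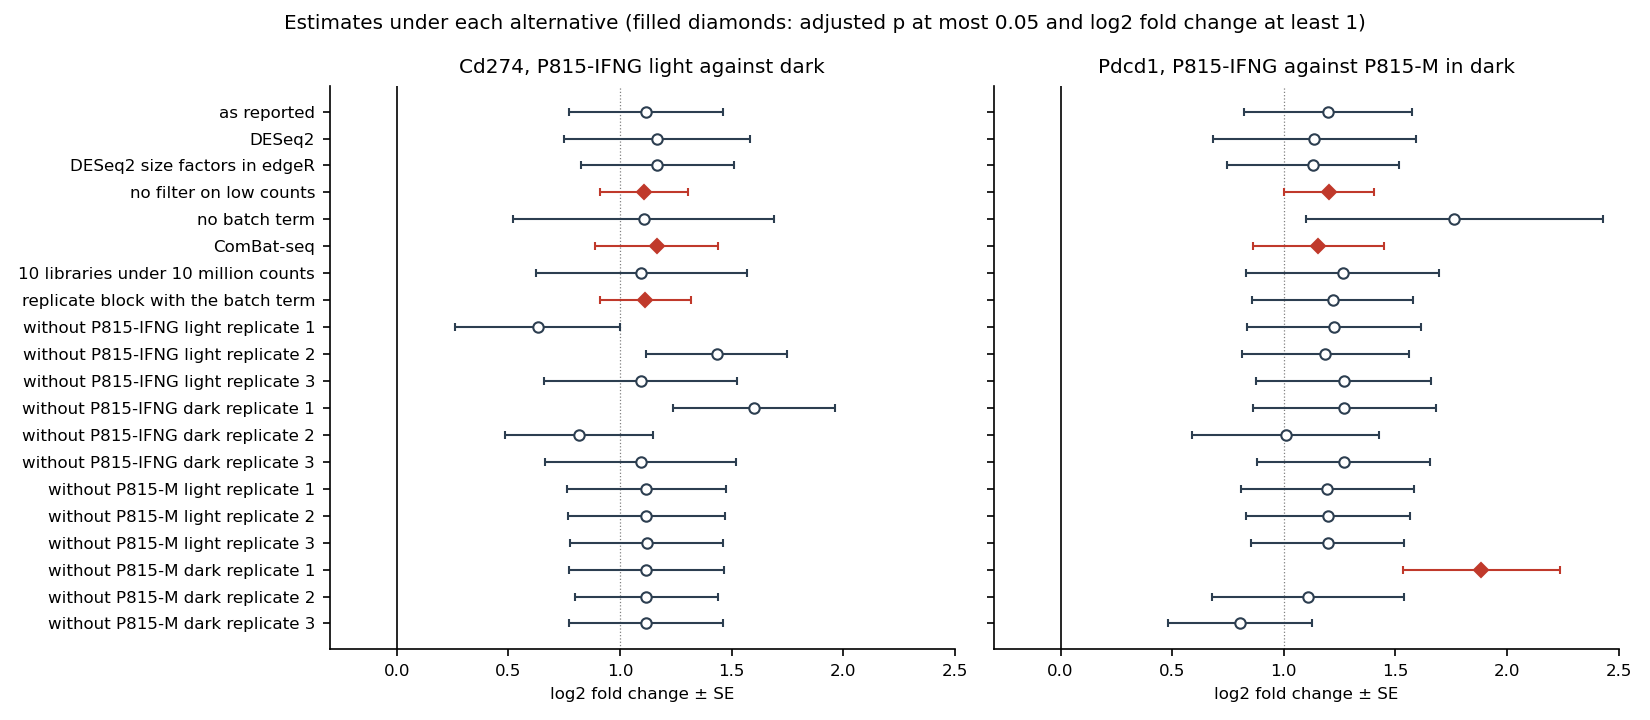
Log2 fold change with its standard error (x axis) under each alternative (y axis), for Cd274 between light and dark in P815-IFNG tumors (left) and for Pdcd1 between the lines in the dark (right). Filled diamonds are estimates that passed both thresholds, 3 of 19 alternatives in each panel, and every estimate in both panels lies above 0.

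In the deep libraries the level of Pdcd1 was set beside T cell markers. Pdcd1 had 19434 counts in the deep light library and 26228 in the deep dark library. Cd3e, a chain of the T cell receptor complex, had 7 and 5 counts there, Cd8a 7 and 0, Cd5 0 and 8, and Trac, the constant region of the receptor's alpha chain, 58 and 41. Cd3g had 171 and 119 counts, and Cd2, an adhesion receptor of T and NK cells, was the highest of the list with 475 and 294. Per kilobase, Kit, the stem cell factor receptor of mast cells, reached 74.7 and 69.1 CPM and the mast cell protease gene Cpa3 4990 and 3605 CPM. Of the other listed T cell markers, Lck had 87 counts in the deep light library and 114 in the deep dark library. Cd4 had 47 and 5 counts there, Cd3d 11 and 7, and Cd8b1 0 and 5. Which cells the Pdcd1 counts came from was not tested. Over the whole list of 10 T cell markers, the summed level was 20.0 and 13.4 CPM in the deep light and dark libraries. In the other libraries it was between 10.2 and 24.5 CPM in P815-IFNG light, 20.1 and 45.3 in P815-IFNG dark, 18.7 and 33.1 in P815-M light and 11.5 and 32.8 in P815-M dark. In each group, 0 of the 10 markers were at 0 in all libraries.

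**Figure D3:**
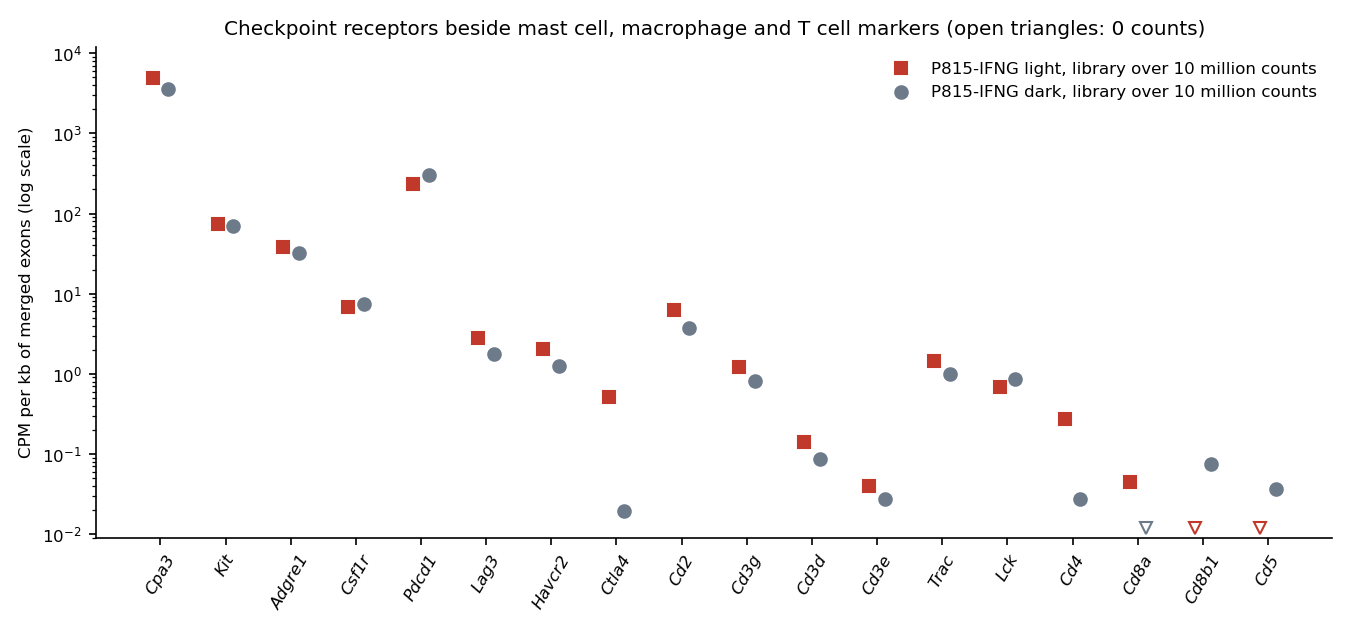
CPM per kb of merged exons (y axis, log scale) of checkpoint receptors and of mast cell, macrophage and T cell markers (x axis) in the 2 deep libraries, P815-IFNG light (squares) and dark (circles). Open triangles at the bottom mark 0 counts. Pdcd1 lies above Kit, Cd3e lies below 0.1 in both libraries, and Cd2 lies at 6.32 in light and 3.77 in dark.

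Lag3 encodes a receptor that binds MHC class II. In P815-IFNG tumors it had 12.5 and 8.30 CPM in light, 8.07 and 8.71 in dark, and 5.93 and 3.71 in the deep light and dark libraries. In P815-M tumors it had 13.5, 19.6 and 25.5 CPM in light and 10.9, 12.0 and 18.5 in dark. Among libraries under 10000000 counts, every P815-IFNG value was below every P815-M value of the same light condition. The log2 fold change between the lines was -0.83 in light (SE 0.36, edgeR's adjusted p = 0.383, unadjusted p = 0.0306) and -0.79 in dark (SE 0.36, edgeR's adjusted p = 0.271, unadjusted p = 0.0379). Lag3 thus differed in sign from Pdcd1, and it was negative under all 19 alternatives in both conditions. Between light and dark its log2 fold change was 0.47 in P815-IFNG (SE 0.33) and 0.50 in P815-M tumors (SE 0.33), and the groups overlapped.

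Havcr2 encodes TIM-3, found on T cells and on myeloid cells. Its counts were low, from 0 to 15 in the 10 libraries. In P815-M tumors it had 2.60, 2.39 and 6.71 CPM in light and 1.56, 1.56 and 0 CPM in dark. The groups did not overlap, but 2 of the dark libraries were at or under the floor of 3 counts. The log2 fold change was 1.94 (SE 0.79, edgeR's adjusted p = 0.301, unadjusted p = 0.0236). In P815-IFNG tumors Havcr2 had 2.82 and 2.44 CPM in light and 4.65 and 3.69 in dark, whereas the deep libraries had 5.49 in light and 3.42 in dark, the opposite direction. The light effect differed between the lines by -2.00 (SE 1.00, edgeR's adjusted p = 0.863, unadjusted p = 0.0594). In the dark, outside the deep library, Havcr2 was higher in each P815-IFNG library than in each P815-M library. That log2 fold change was 1.77 (SE 0.79, edgeR's adjusted p = 0.265, unadjusted p = 0.0359).

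Ctla4 encodes CTLA-4, the inhibitory receptor of CD80 and CD86. It had 8, 0 and 52 counts in P815-IFNG light and 6, 0 and 2 in P815-IFNG dark, where the last of each is the deep library. In P815-M tumors it had 0, 0 and 4 counts in light and 1, 0 and 1 in dark. The counts of the deep pair gave a ratio of light to dark of 27.0 (exact 95% interval 7.10 to 229), which rests on 2 counts in the dark library, under the floor, and compares these 2 libraries and not the conditions. The other libraries of the P815-IFNG groups overlapped.

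Cd80 and Cd86 encode the B7 molecules of antigen-presenting cells. In P815-IFNG tumors Cd80 had 13.7 and 7.81 CPM in light, 4.65 and 7.71 in dark, and 5.97 and 4.71 in the deep light and dark libraries. The light values lay above the dark values of the same kind of library, with a log2 fold change of 0.62 (SE 0.40, edgeR's adjusted p = 0.715). In P815-M tumors Cd80 had 6.23, 5.75 and 5.81 CPM in light and 3.12, 4.17 and 7.0 in dark, with overlap. Both P815-IFNG light libraries outside the deep one exceeded the P815-M light libraries, while the deep value of 5.97 lay among them. That log2 fold change was 0.78 (SE 0.45, edgeR's adjusted p = 0.560).

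Cd86 had 10.5 and 2.93 CPM in P815-IFNG light, 6.21 and 4.36 in P815-IFNG dark, and 5.07 and 3.68 in the deep light and dark libraries. In P815-M tumors it had 3.63, 6.22 and 6.26 CPM in light and 3.90, 0.521 and 3.29 in dark. The dark P815-IFNG libraries outside the deep one exceeded the dark P815-M libraries, and the other 3 comparisons showed overlap. The log2 fold change of Cd86 was 0.96 between the lines in the dark (SE 0.63, edgeR's adjusted p = 0.488) and 1.01 between light and dark in P815-M tumors (SE 0.62, edgeR's adjusted p = 0.533).

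Ido1, the tryptophan-degrading enzyme, had few counts. It had 10, 0 and 7 counts in P815-IFNG light and 2, 2 and 0 in P815-IFNG dark, the last of each in the deep library. In P815-M tumors it had 1, 0 and 0 counts in light and 0 in all 3 dark libraries. With 10 of 12 libraries at or under the floor, the deep dark one included, no difference is read from Ido1.

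For light against dark in P815-IFNG tumors, 0 of the 10 members were called against 0.0106% of all genes tested, where a call needed an adjusted p up to 0.05 with a log2 fold change of 1 or more in either direction. At an unadjusted p under 0.05 there was 1 member, Cd274, against 8.34% of all genes. Of the 10 members, 7 had a positive log2 fold change, or 5 of the 8 members without Ctla4 and Ido1. Over all 18804 genes, 8774 were positive. The median was 0.43, or 0.21 over the 8 members, against -0.03 over all genes. The groups did not overlap and were higher in light for 1 member, Cd80 (8.58% of all genes), and lower for 2, Pdcd1 and Lgals9 (12.5% of all genes).

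For light against dark in P815-M tumors, 0 members were called against 1.03% of all genes, and 1 member, Havcr2, had an unadjusted p under 0.05 against 12.5% of all genes. Positive values were seen for 8 of the 10 members, or 6 of the 8 without Ctla4 and Ido1, against 9610 of all 18804 genes. The median log2 fold change was 0.65, or 0.55 over those 8 members, against 0.01 over all genes. The groups did not overlap for 2 members that were higher in light, Cd274 and Havcr2 (10.1% of all genes), and for 0 that were lower (8.06% of all genes).

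Between the lines in light, 0 members were called against 0.436% of all genes. At an unadjusted p under 0.05 there were 3 members, Pdcd1, Lag3 and Ido1, or 2 over the 8 members without Ctla4 and Ido1, against 11.1% of all genes. Ido1 had 10, 0 and 7 counts in P815-IFNG light, the last in the deep library, and 1, 0 and 0 in P815-M light. The median log2 fold change of the members was 0.42, or 0.39 over the 8 members, against 0.02 over all genes. The groups did not overlap for 3 members higher in P815-IFNG, Pdcd1, Lgals9 and Cd80 (12.9% of all genes), and for 1 that was lower, Lag3 (11.7% of all genes).

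Between the lines in the dark, 0 members were called against 1.54% of all genes, and 3 members, Pdcd1, Lag3 and Havcr2, had an unadjusted p under 0.05 against 16.3% of all genes. Positive values were seen for 9 of the 10 members, or 7 of the 8 without Ctla4 and Ido1, against 10336 of all 18804 genes. The median was 0.72, or 0.42 over those 8 members, against 0.06 over all genes. The groups did not overlap for 4 members higher in P815-IFNG, Pdcd1, Havcr2, Ido1 and Cd86 (18.6% of all genes), and for 1 that was lower, Lag3 (15% of all genes). The Ido1 counts behind this were 2 and 2 against 0, all under the floor.

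For the difference between the lines in the light effect, 0 members were called against 0.016% of all genes, and 0 had an unadjusted p under 0.05 against 5.73% of all genes. DESeq2 also called 0 members in all 5 comparisons, against 19 to 364 of the 18804 genes. At DESeq2's unadjusted p under 0.05 there were 0 to 3 members, against 1038 to 3002 genes. The comparisons of light with dark share their libraries with the comparisons of the lines.

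**Figure D4:**
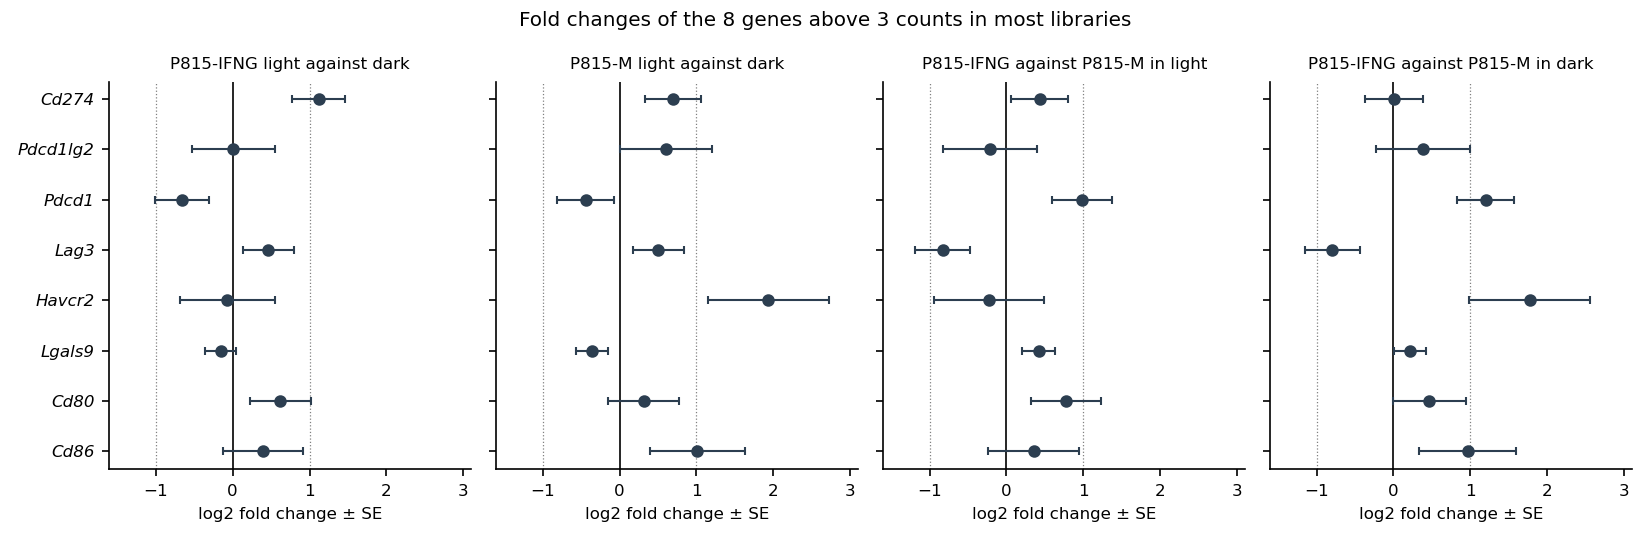
Log2 fold change with its standard error (x axis) of the 8 members other than Ctla4 and Ido1 (y axis) in the 4 comparisons, from edgeR's fit of all 12 libraries with a term for the deep libraries. Dotted lines mark a log2 fold change of 1 in each direction; Pdcd1 and Lag3 point in opposite directions in both comparisons of the lines.

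Other genes of these pathways were read from the same fit in 6 lists, where between 0.0106% and 1.54% of all genes were called per comparison. Of the 10 coinhibitory receptors, 1 was called higher in light in P815-M tumors, Vsir, which encodes the checkpoint VISTA, and 0 were called in P815-IFNG tumors. Vsir had between 54.6 and 80.5 CPM in P815-M light and between 20.3 and 34.3 CPM in P815-M dark, and a log2 fold change of 1.14 (SE 0.23, edgeR's adjusted p = 0.0149). In P815-IFNG tumors it had 71.2 and 80.4 CPM in light and 74.2 and 76.7 CPM in dark, and 19.3 and 12.3 CPM in the deep libraries. It was therefore also called between the lines in the dark (1.27, SE 0.23, edgeR's adjusted p = 0.00669), a comparison that shares the P815-M dark libraries. The difference in its light effect between the lines was -0.90 (edgeR's adjusted p = 0.666). The first call was lost without the first P815-M light replicate (0.94, edgeR's adjusted p = 0.104) or the second P815-M dark replicate (0.95, edgeR's adjusted p = 0.0696), and both were lost without the batch term. Over 19 alternatives the adjusted p ranged from 3.37e-05 to 1 for light against dark and from 2.16e-06 to 0.604 between the lines.

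Tigit, an inhibitory receptor of T and NK cells, was among the larger differences of that list without a call. Its log2 fold change was 2.01 between light and dark in P815-M tumors (edgeR's adjusted p = 0.366) and -1.14 in P815-IFNG tumors (edgeR's adjusted p = 0.733), at a mean of at most 4.44 CPM in any group outside the deep libraries. Cd200r1, an inhibitory receptor of myeloid cells, had 9.02 CPM in P815-IFNG light and 21.7 CPM in P815-M light (means outside the deep library; edgeR's adjusted p = 0.286). Of the 8 coinhibitory ligands tested, 0 were called in any of the 5 comparisons. Tnfrsf14, which encodes the ligand of BTLA, had a log2 fold change between the lines of 1.04 in light (edgeR's adjusted p = 0.332) and 1.23 in dark (edgeR's adjusted p = 0.147).

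No costimulatory receptor (9 tested) or ligand (7 tested) was called in any comparison. Cd226, an activating receptor of T and NK cells, had the largest light difference among the receptors in P815-IFNG tumors. It had 3.90 and 10.9 CPM in light and 0.335 and 0.931 CPM in dark, and 5.97 and 1.03 CPM in the deep light and dark libraries. Its log2 fold change was 2.99 (SE 0.67, edgeR's adjusted p = 0.142) in P815-IFNG and 1.93 (SE 0.77, edgeR's adjusted p = 0.286) in P815-M tumors, and in both lines the groups did not overlap, although the dark values outside the deep library were at or near the floor. Cd28, the activating receptor of CD80 and CD86, had a mean of 3.17 CPM in P815-M light and 12.4 CPM in P815-M dark, and a log2 fold change of -1.94 (edgeR's adjusted p = 0.160). It had a mean of 2.26 CPM in P815-IFNG dark and 6.14 CPM in the deep dark library, a log2 fold change of -2.15 against P815-M dark (edgeR's adjusted p = 0.0946). Tnfrsf9, which encodes the costimulatory receptor 4-1BB, had means of 15.3 CPM in P815-IFNG light and 67.2 CPM in P815-M light, while the deep light library had 139 CPM. Its log2 fold change between the lines in light was -1.55 (edgeR's adjusted p = 0.214). Tnfsf15, a ligand of the TNF family, was lower in P815-IFNG tumors by a log2 fold change of -2.21 in light (edgeR's adjusted p = 0.249) and -2.90 in dark (edgeR's adjusted p = 0.0548). Its P815-IFNG values outside the deep libraries were at or under the floor, 1.21 and 1.46 CPM in light and 0.621 and 0.670 CPM in dark. P815-M libraries had between 4.92 and 6.22 CPM in light and between 1.56 and 7.81 CPM in dark.

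Of the 13 suppressive enzymes and cytokines, 0 were called in any of the 5 comparisons. Nos2, the inducible nitric oxide synthase, had means of 192 CPM in P815-IFNG light and 53.2 CPM in P815-IFNG dark. Of these light libraries 1 had 335 CPM and the other 49.8, and the deep libraries had 46.1 CPM in light and 13.9 CPM in dark. The log2 fold change was 1.81 (SE 0.45, edgeR's adjusted p = 0.164). Nt5e, the ecto-enzyme CD73 that makes adenosine, was lower in P815-IFNG than in P815-M tumors in the dark, with a log2 fold change of -0.95 (edgeR's adjusted p = 0.110).

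Among the 13 genes that carry the interferon gamma signal, Ifngr1, the ligand-binding chain of its receptor, was called between the lines in the dark. It had 43.6 and 54.3 CPM in P815-IFNG dark, 97.9 CPM in the deep dark library and between 15.1 and 23.4 CPM in P815-M dark. The log2 fold change was 1.23 (SE 0.24, edgeR's adjusted p = 0.00883). The call was lost without the first P815-IFNG dark replicate (1.08, edgeR's adjusted p = 0.0513) and without the batch term, and over 19 alternatives the adjusted p ranged from 2.26e-05 to 0.604. The row of Ifng itself had 1.95 and 14.9 CPM in P815-IFNG light and 1.01 and 1.86 CPM in P815-IFNG dark, at or near the floor. The deep libraries had 1.76 CPM in light and 0.670 CPM in dark. Its log2 fold change was 2.07 (SE 0.77, edgeR's adjusted p = 0.459). Whether this row holds reads of the cassette was not tested. The transcription factor gene Irf1, a target of the pathway, had a log2 fold change between light and dark of 1.39 in P815-IFNG tumors (edgeR's adjusted p = 0.158) and 0.97 in P815-M tumors (edgeR's adjusted p = 0.216). The exons of Irf1 overlap a gene on the other strand over 135 bases. Irf8, of the same family, had a log2 fold change between the lines of 1.32 in light and 1.27 in dark (edgeR's adjusted p = 0.164 and 0.0988). Its means in P815-IFNG light and dark were 88.5 and 59.6 CPM, against 16.8 and 6.74 CPM in the deep libraries.

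Markers of other cell types moved with some groups. The 11 macrophage and monocyte markers summed to between 1214 and 1305 CPM in P815-M light and between 732 and 941 CPM in P815-M dark. In P815-IFNG tumors the sum was lower in light in the other libraries, from 1090 to 1365 CPM against 1459 to 1639 CPM in dark, but higher in light in the deep pair, with 728 against 498 CPM. The 9 dendritic cell markers summed to between 36.1 and 55.9 CPM in P815-IFNG light and between 93.4 and 99.9 CPM in P815-IFNG dark, but 90.7 and 82.3 CPM in the deep libraries. In those P815-IFNG dark libraries the adipocyte markers reached between 98.4 and 133 CPM, against between 8.78 and 14.5 CPM in light, whereas the deep pair had 75.6 CPM in light and 11.9 CPM in dark. The endothelial markers summed to between 29.4 and 31.7 CPM in light and between 89.4 and 122 CPM in dark, and to 25.2 and 39.8 CPM in the deep light and dark libraries. The part of these markers in the members' values was not tested.

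The members differed between the 2 kinds of P815-IFNG library in both directions. As the mean of the other libraries over the deep one, the log2 ratio in light and dark was 1.21 and 1.26 for Cd274 and 0.76 and 1.08 for Lag3. It was -1.57 and -1.15 for Pdcd1 and -1.06 and -0.92 for Lgals9. The median of 15291 genes was -0.19 in light and -0.14 in dark. Of the 8 members, Havcr2 had a different sign in the 2 groups, -0.94 in light and 0.25 in dark.

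**Figure D5:**
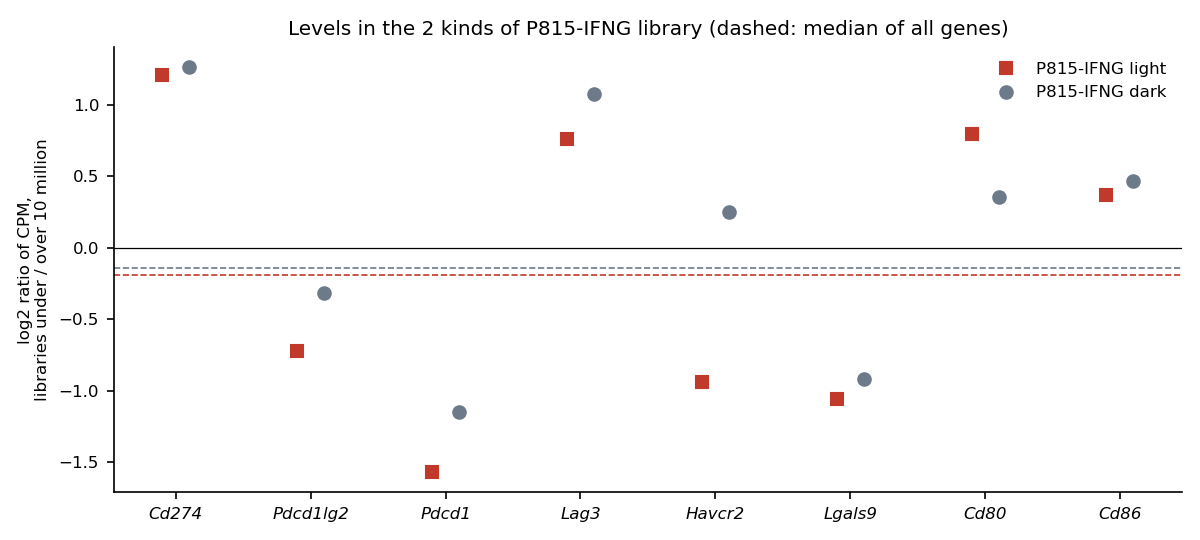
Log2 ratio of the mean CPM in P815-IFNG libraries under 10000000 counts to the CPM in the deep library (y axis) for 8 members (x axis), in light (squares) and dark (circles). Dashed lines are the medians of all 15291 genes; Cd274, Lag3, Cd80 and Cd86 lie above 0, and Pdcd1lg2, Pdcd1 and Lgals9 lie below.

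For the 6 members with a mean of at least 5 CPM over the 10 libraries under 10000000 counts, the genes with the most similar pattern were sought. Likeness was the mean absolute difference of log2 CPM after each gene was centred, over these 10 libraries. Cd274 was nearest to Gm36043 (0.21), H2-T23 (0.23) and Gm10425 (0.26), with a median of 0.62 over all genes compared. Pdcd1 was nearest to I730030J21Rik (0.22), Fjx1 (0.25) and Apln (0.27), with a median of 0.80. Lag3 was nearest to Cd44 (0.15), Gm867 (0.17) and Usp35 (0.19), and Lgals9 to Cmas, Pced1b and Psmb4 (0.10 to 0.11). Cd80 was nearest to Dhx58, Idnk and Herc6 (0.17 to 0.18), and Pdcd1lg2 to Gm20743, Naip2 and Pgap1 (0.27 to 0.35). Gm10425, Gm20743, Gm867, Pced1b and Dhx58 have exons that overlap a gene on the other strand.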

How the data were processed

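RNA was sequenced from 12 single tumors, 3 mice in each of 4 groups taken from the sample labels. Per the labels and the methods, the authors filtered reads with fastp, aligned them with STAR 2.7.9a to mm10 with the knock-in sequences added, and counted them with HTSeq 0.13.5 at default parameters, and the deposited files hold their unnormalized counts for each gene symbol. The annotation release is not given in the sources used here. Depth was between 2211234 and 2946792 counts in 10 libraries and over 10000000 in 2, which sets the precision of low genes.

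After removal of 13 mitochondrial rows, the 18804 genes whose counts summed to 10 or more were tested with edgeR 4.0.16 in R 4.3.3 (TMM, 1 mean per group, a term for the 2 deep libraries, quasi-likelihood test, Benjamini-Hochberg adjustment over all genes). A call needed an adjusted p up to 0.05 with a log2 fold change of 1 or more in either direction. A pair of groups was said not to overlap when, among libraries under 10000000 counts, all values of one lay above all of the other and a deep pair, where present, differed the same way. All members are described; of the other lists, genes are named if called or among the 2 largest changes of a list in a comparison with a mean of at least 3 CPM in the higher group, and of these a selection is printed. For likeness, 0.5 was added to CPM. Gene models were taken from GENCODE M21. Alternatives were DESeq2 1.42.0, its size factors, no filter, no batch term, ComBat-seq of sva 3.50.0, the 10 libraries alone, the replicate number as a block, a call on the adjusted p alone, and omission of each library in turn. The code was tested on simulated data. The members and lists were chosen with earlier results of these data known.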

Additional observations from a re-analysis of the deposited data

How the results depend on the processing

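Fold changes of the 8 members above the floor in most libraries (40 values) and of the 3 calls in the lists gave 817 values under the alternatives, of which 763 kept direction and side of the thresholds, 6 lost a call, 6 gained one and 42 changed sign. The largest main log2 fold change in size that changed sign was 0.60, that of Pdcd1lg2 in P815-M light against dark. The number of members called rose from 0 to 1 in P815-IFNG light against dark without the filter, with ComBat-seq and with the replicate block (Cd274), and between the lines in the dark without the filter, with ComBat-seq, and without the first P815-M dark replicate (Pdcd1; 0 to 1 with 1 library left out). The cause was not tested.

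Genes called over the whole table, in the order light effect in P815-IFNG, light effect in P815-M, lines in light, lines in dark and difference in the light effect, were 2, 194, 82, 290 and 3. They were 211, 429, 245, 640 and 203 without the filter and 0, 0, 3, 2 and 0 without the batch term. ComBat-seq gave 150, 252, 544 and 40 in the comparisons other than P815-M light against dark, DESeq2 gave 50 in P815-IFNG light against dark and 19 for the difference, DESeq2's size factors gave 1 for the difference, and the 10 libraries alone gave 1 in P815-IFNG light against dark and 39 between the lines in light. Without a minimum fold change 441 were called between the lines in the dark. With 1 library left out the counts ranged from 1 to 52, 61 to 237, 29 to 161, 153 to 444 and 1 to 14.

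Same-numbered libraries did not deviate together: over 13 pairs of libraries under 10000000 counts the correlation of their deviations ranged from -0.34 to 0.28 and was over 0.1 in 2, against 9 of 24 pairs with different numbers. This check cannot decide whether the numbers pair the mice. The 2 deep libraries were outside it, and in a group of 2 libraries the deviations mirror each other. The replicate block gave 62 calls in P815-IFNG light against dark and 16 for the difference, and with it Cd274 had a log2 fold change of 1.11 (edgeR's adjusted p = 0.0108).

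Log2 fold changes changed sign as follows. In P815-IFNG light against dark, Pdcd1lg2 was -0.00172 without the filter and -0.16 in the 10 libraries alone, and Havcr2 was 0.0521 with ComBat-seq. Between the lines in the dark, Cd274 was -0.0570 with DESeq2, -0.0637 with its size factors, -0.30 without the batch term and -0.0439 with ComBat-seq. The difference in the light effect of Lag3 was 0.0302 with DESeq2, 0.0204 with its size factors and 0.0325 with ComBat-seq.

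With 1 library left out, in P815-IFNG light against dark, Pdcd1lg2 ranged from -0.42 to 0.58, Havcr2 from -0.67 to 0.14 and Cd86 from -0.12 to 0.73. In P815-M light against dark, Pdcd1lg2 ranged from -0.15 to 1.09 and Pdcd1 from -0.90 to 0.25. Between the lines in light, Cd274 ranged from -0.17 to 0.84, Pdcd1lg2 from -0.75 to 0.54, Havcr2 from -0.56 to 0.43 and Cd86 from -0.30 to 0.79. Between the lines in the dark, Cd274 ranged from -0.60 to 0.39 and Pdcd1lg2 from -0.40 to 0.87. For the difference in the light effect, Cd274 ranged from -0.0354 to 0.94, Pdcd1lg2 from -1.08 to 0.16, Pdcd1 from -0.90 to 0.24, Lag3 from -0.31 to 0.20, Lgals9 from -0.15 to 0.37 and Cd80 from -0.0918 to 0.55.

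Without the batch term the calls of Vsir (1.15 in P815-M light against dark, 0.91 between the lines in the dark) and Ifngr1 (1.71) were lost. Ctla4 and Ido1 lie mostly at or under the floor of 3 counts, between 0.931 and 1.56 CPM in the 10 libraries, where the part of strand in low values was not tested, and 2 of 3 libraries per P815-IFNG group give the replicate spread within a kind. Fold changes of these 2 genes were left out of the alternatives.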

Other observations

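The members were also set against each other by the likeness used for the nearest genes, over the 10 libraries under 10000000 counts. Pdcd1 and Lgals9 had a mean absolute log2 difference of 0.52. Of all genes compared, 1.60% were as near or nearer to Pdcd1 and 77.5% to Lgals9. Pdcd1lg2 and Cd274, which are neighbours on chromosome 19, differed by 0.56, with 1.08% of genes as near to Pdcd1lg2 and 23.3% as near to Cd274. Cd274 and Pdcd1 differed by 1.12, and 98.4% of genes were as near or nearer to Cd274. Lag3 and Pdcd1 differed by 1.15, with 98.7% of genes as near or nearer to Lag3. These values share libraries and depth and are given as a description.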
